A study of Mus musculus with 2 samples.

Results

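The genes described here are 10 genes of pulmonary surfactant and of the lamellar bodies that store it: Sftpc, Sftpb, Sftpa1, Sftpd, Napsa, Ctsh, Abca3, Lamp3, Lpcat1 and Slc34a2. They were chosen by name for these roles, and each symbol matched 1 of the 32286 features of the deposited tables. Single-cell RNA libraries were prepared after 3 weeks of intravenous injections from the entire lung of BALB/c mice, all female and aged 9 to 10 weeks. The CM library came from mice given control media, that is, medium incubated without tumor, and the TCM library from mice given tumor conditioned media, that is, medium without serum in which pieces of 4T1 mammary tumors had been cultured, pooled from 3 tumors. The labels name no tumor, transgene or other agent in either group of mice, and how many mice gave each library was not given in the sources used here. With 1 library a group there is no test: each ratio below compares 2 libraries, its interval covers counting error only, and the treatment and the library cannot be told apart.

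Surfactant is a film of phospholipid and protein that lowers surface tension in the alveolus, so that the air spaces do not collapse at low lung volume. It is made by alveolar type II (AT2) cells, which pack it into lamellar bodies, lysosome-related organelles, and secrete it by fusing them with the cell surface. Sftpc and Sftpb encode the small hydrophobic proteins that spread the lipid, cut out of larger precursors by the proteases Napsa and Ctsh. Sftpa1 and Sftpd encode collectins, secreted lectins of innate defence. Abca3 pumps phospholipid into the lamellar body, Lamp3 is a glycoprotein of its outer membrane, Lpcat1 makes the saturated phosphatidylcholine of surfactant, and Slc34a2 takes up the phosphate that its lipids release.

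All 10 are protein-coding genes in GENCODE's annotation of GRCm38. Sftpa1 (chr14:41131782-41136452, plus strand) and Sftpd (chr14:41172214-41185149, minus strand) lie 35.8 kb apart, and Sftpc (chr14:70520949-70524081, minus strand) lies on the same chromosome. The others are Sftpb (chr6:72304610-72314371), Napsa (chr7:44572380-44586862), Ctsh (chr9:90054152-90076089), Abca3 (chr17:24351950-24410201), Lpcat1 (chr13:73467197-73516422) and Slc34a2 (chr5:53038081-53071664) on the plus strand and Lamp3 (chr16:19653378-19706375) on the minus strand. RefSeq's promoter table on GRCm38.p6 held 6 of the 10, Sftpa1, Sftpb, Abca3, Lamp3, Lpcat1 and Slc34a2. The 250 bases before the start are given for 3 of them, because Sftpa1 and Sftpb were high in both AT2 and club cells whereas Lamp3 was high in AT2 cells and near 0 in club cells. They are chr14:41131538-41131787 (plus), chr6:72304360-72304609 (plus) and chr16:19706366-19706615 (minus), each written in the gene's direction.
Sftpa1: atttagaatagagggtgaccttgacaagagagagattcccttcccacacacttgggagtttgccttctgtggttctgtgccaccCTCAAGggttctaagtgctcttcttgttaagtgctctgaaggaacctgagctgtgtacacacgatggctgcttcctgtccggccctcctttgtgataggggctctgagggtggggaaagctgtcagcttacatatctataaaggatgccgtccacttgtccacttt
Sftpb: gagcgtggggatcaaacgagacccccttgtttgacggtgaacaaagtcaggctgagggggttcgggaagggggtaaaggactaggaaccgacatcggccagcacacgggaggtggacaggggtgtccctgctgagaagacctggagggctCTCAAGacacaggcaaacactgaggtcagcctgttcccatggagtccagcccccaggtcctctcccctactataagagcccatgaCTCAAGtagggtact
Lamp3: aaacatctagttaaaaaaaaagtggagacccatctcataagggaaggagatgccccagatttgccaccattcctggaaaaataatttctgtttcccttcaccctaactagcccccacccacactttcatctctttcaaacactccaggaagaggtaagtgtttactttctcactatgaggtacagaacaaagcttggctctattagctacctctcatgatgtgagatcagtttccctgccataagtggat
Capitals mark CTCAAG, the core of the motif bound by NKX2-1, the lung's epithelial transcription factor, searched on both strands and overlapping no other motif searched. It stood 166 bases before the start of Sftpa1, and 100 and 15 bases before that of Sftpb. The other 4 promoters held none. Abca3 was among them, although it was only 3.91 and 3.46 times lower in club than in AT2 cells (CM and TCM). Of 32851 promoter windows of the same length, 4378 (13.3%) held it, so a match is a description of these letters and not evidence of a site.

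The CM library held 31944151 UMIs (unique molecular identifiers, each standing for 1 RNA molecule) and the TCM library 36648719. As cells were taken droplets of 500 or more UMIs, 200 or more genes and at most 10% mitochondrial UMIs, that is, 7988 in CM (median 2085 UMIs) and 7707 in TCM (median 2346), of which 93 barcodes were kept in both. Each cell was assigned to 1 of 26 classes from marker lists that held none of the 10 genes. This gate placed 81.1% of cells, and 11.9% carried the markers of more than 1 class and are called mixed. AT2-like cells numbered 252 in CM, 3.15% of cells (exact 95% binomial interval 2.78 to 3.56%), and 297 in TCM, 3.85% (3.43 to 4.31%). With mixed cells whose first or second class was AT2 counted too, the shares were 5.38% and 4.81%, so the order of the libraries turned. All 8 AT2 markers, among them the chemokine Cxcl15 and the mucin Muc1, had UMIs in these cells in both libraries, and none of their 10 leading genes by fold was a marker of any class. The gate itself required 3 of the AT2 markers in a cell, so their presence is no separate check. The median AT2-like cell held 3941 UMIs in CM, against 5792 in TCM. The gated AT2-like cells nearest to a limit of the gate numbered 40 in CM and 20 in TCM, and 50 and 16 cells lay just outside it. Levels are given as CP100k, UMIs of a gene per 100000 UMIs of the class, and since each molecule is counted once at its 5′ end they are compared between genes without scaling by length.

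In AT2-like cells the 10 genes took 28.1% of all UMIs in CM and 27.5% in TCM. Sftpc alone made up 81.5% and 80.2% of these. It stood at 22875 CP100k in CM (exact 95% Poisson interval 22789 to 22961) and 22102 in TCM (22032 to 22173), which gave a log2 ratio of TCM over CM of −0.05 (−0.06 to −0.04). Sftpb stood at 1038 CP100k in CM (1020 to 1056) and 1172 in TCM (1156 to 1188), which gave a log2 ratio of 0.17 (0.14 to 0.21). Thus the most abundant gene of the set was 0.97-fold its CM level in TCM, whereas its partner was 1.13-fold higher in TCM. Over single AT2-like cells, the middle of the distribution was alike for Sftpc, with a median of 22202 CP100k in CM and 22399 in TCM and a lowest cell of 905 and 721. For Sftpb the median cell held 930 and 1133 CP100k, and the 25th percentile 593 and 897, so the low end of the CM cells lay further down.

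Of the collectins, Sftpa1 had 2849 CP100k in CM (2818 to 2879) and 2839 in TCM (2814 to 2864), which gave a log2 ratio of −0.00 (−0.02 to 0.02). Sftpd had 438 in CM (427 to 450) and 457 in TCM (447 to 468), which gave a log2 ratio of 0.06 (0.01 to 0.11). Both collectins were thus at most 1.04-fold apart between the libraries.

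The other 6 genes lay between 55.6 and 369 CP100k. Of the proteases, Napsa had 241 in CM and 254 in TCM, which gave a log2 ratio of 0.08 (0.01 to 0.15), and Ctsh had 55.6 and 66.7, which gave a log2 ratio of 0.26 (0.12 to 0.40). Abca3, the lipid pump, had 68.1 in CM and 82.6 in TCM, which gave a log2 ratio of 0.28 (0.15 to 0.40). The phosphate transporter Slc34a2 had 303 and 369, which gave a log2 ratio of 0.28 (0.23 to 0.34). Lamp3 had 95.9 and 102, which gave a log2 ratio of 0.09 (−0.02 to 0.20), and Lpcat1 had 103 and 99.9, which gave a log2 ratio of −0.04 (−0.14 to 0.07). The intervals of Lamp3 and Lpcat1 both spanned 0, and those of Ctsh, Abca3 and Slc34a2 lay above it.

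No member was 25% higher in either library. Among the 7230 genes with at least 20 UMIs in AT2-like cells of a library, 26.4% were at least 25% higher in TCM and 12.5% at least 25% higher in CM. The median log2 ratio of the 10 genes was 0.08, and that of all these genes was also 0.08. Thus 7 members had a ratio above 0 and 3 below, around the shift of the whole class. The summed AT2 marker list had a log2 ratio of 0.12 (0.09 to 0.14), with Hc, a complement factor, at 0.36 and Cxcl15 at 0.13. When levels were scaled to these markers the median member ratio was −0.03, and that of Sftpd was −0.06 and of Napsa −0.04.

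**Figure D1:**
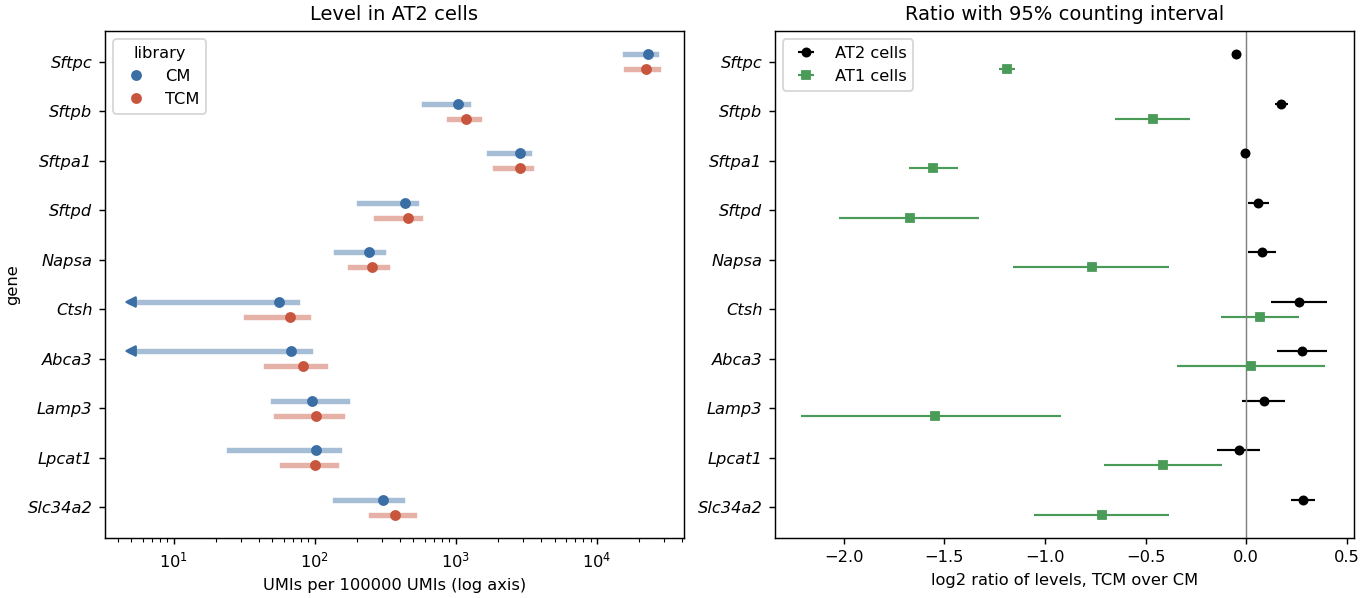
Left, levels of the 10 genes in AT2-like cells of CM and TCM in UMIs per 100000 on a log axis. Points are levels summed over cells, bars the 25th to 75th percentile over single cells, and "<" marks a 25th percentile of 0. Right, log2 ratios of TCM over CM of the summed levels in AT2-like and AT1-like cells, with 95% counting intervals. Sftpc lies at summed levels of 22875 and 22102. The ratios run from −0.05 for Sftpc to 0.28 for Slc34a2 in AT2-like cells, and from −1.67 for Sftpd to 0.07 for Ctsh in AT1-like cells.

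The AT2-like cells of the libraries differed in depth, and the ratios differed with it. Among cells of 500 or more and under 2000 UMIs (87 in CM, 25 in TCM) the median member ratio was 0.19, and Sftpb reached 1.01 (0.82 to 1.19). From there to under 5000 UMIs (54 and 99 cells) the median was 0.05, from 5000 to under 8000 UMIs (61 and 108) it was 0.16, and at 8000 or more (50 and 65) it was −0.01. Ctsh, Sftpb and Slc34a2 had ratios above 0 in all 4 ranges, but not every interval excluded 0. Ctsh lay between 0.23 and 0.67. Its interval was −0.15 to 1.46 in the shallowest range and −0.07 to 0.62 from 2000 to under 5000 UMIs. Sftpb was at 0.03 (−0.03 to 0.08) in the deepest cells. Slc34a2 ran from 0.03 (−0.09 to 0.16), between 2000 and under 5000 UMIs, to 0.65 in the shallowest range. Abca3 was at −0.05 (−0.29 to 0.19) from 2000 to under 5000 UMIs, at 0.07 (−0.13 to 0.28) from 5000 to under 8000, and at 0.83 (0.03 to 1.60) and 0.46 (0.23 to 0.69) in the shallowest and the deepest range. The share of AT2-like cells with at least 1 Abca3 UMI was 74.6% in CM and 92.9% in TCM, and when every cell was thinned to 1000 UMIs (41 and 8 shallower cells left out) it was 55.0% (48.0 to 61.8%) and 56.7% (50.8 to 62.5%). For Ctsh these shares were 69.8% and 89.6% before thinning, and 37.9% (31.3 to 44.8%) and 46.0% (40.2 to 52.0%) after it. The marker lists of other cell types were low in AT2-like cells, which follows in part from the gate, since it used the same lists. The 8 AT1 markers, all detected, summed to 153 and 184 CP100k against 3752 and 3988 in AT1-like cells, and the 8 club markers, all detected and led by secretoglobins, to 626 and 742 against 44128 and 47442. Their part in the ratios was not tested.

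Across cell classes, 9 of the 10 genes had their highest level in AT2-like cells in both libraries, among the 18 classes with at least 20 cells in each. The exception was Ctsh. For Sftpa1, club-like cells came next, with 488 CP100k in CM and 240 in TCM, 5.84 and 11.8 times below AT2-like cells. For Sftpb they had 87.6 and 138, and for Sftpd 85.7 and 106. For Slc34a2 the step was larger, from 303 to 15.5 CP100k in AT1-like cells in CM, and from 369 to 10.1 in erythroid-like cells in TCM. The erythroid-like cells of TCM had a median of only 581.5 UMIs. Their interval overlapped that of AT1-like cells, at 9.41 CP100k, and the part of free RNA in this level was not tested. From the fourth class down, 258 of 280 neighbours in these orders had overlapping counting intervals. AT2-like cells held 62.3% of the Sftpc UMIs found in cells in CM and 76.1% in TCM, and mixed cells held 27.2% and 14.95%. Sftpc made up more than 5% of the UMIs of 292 cells outside the AT2 gate in CM and of 78 in TCM. Of these, 229 and 63 were mixed or in no class.

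**Figure D2:**
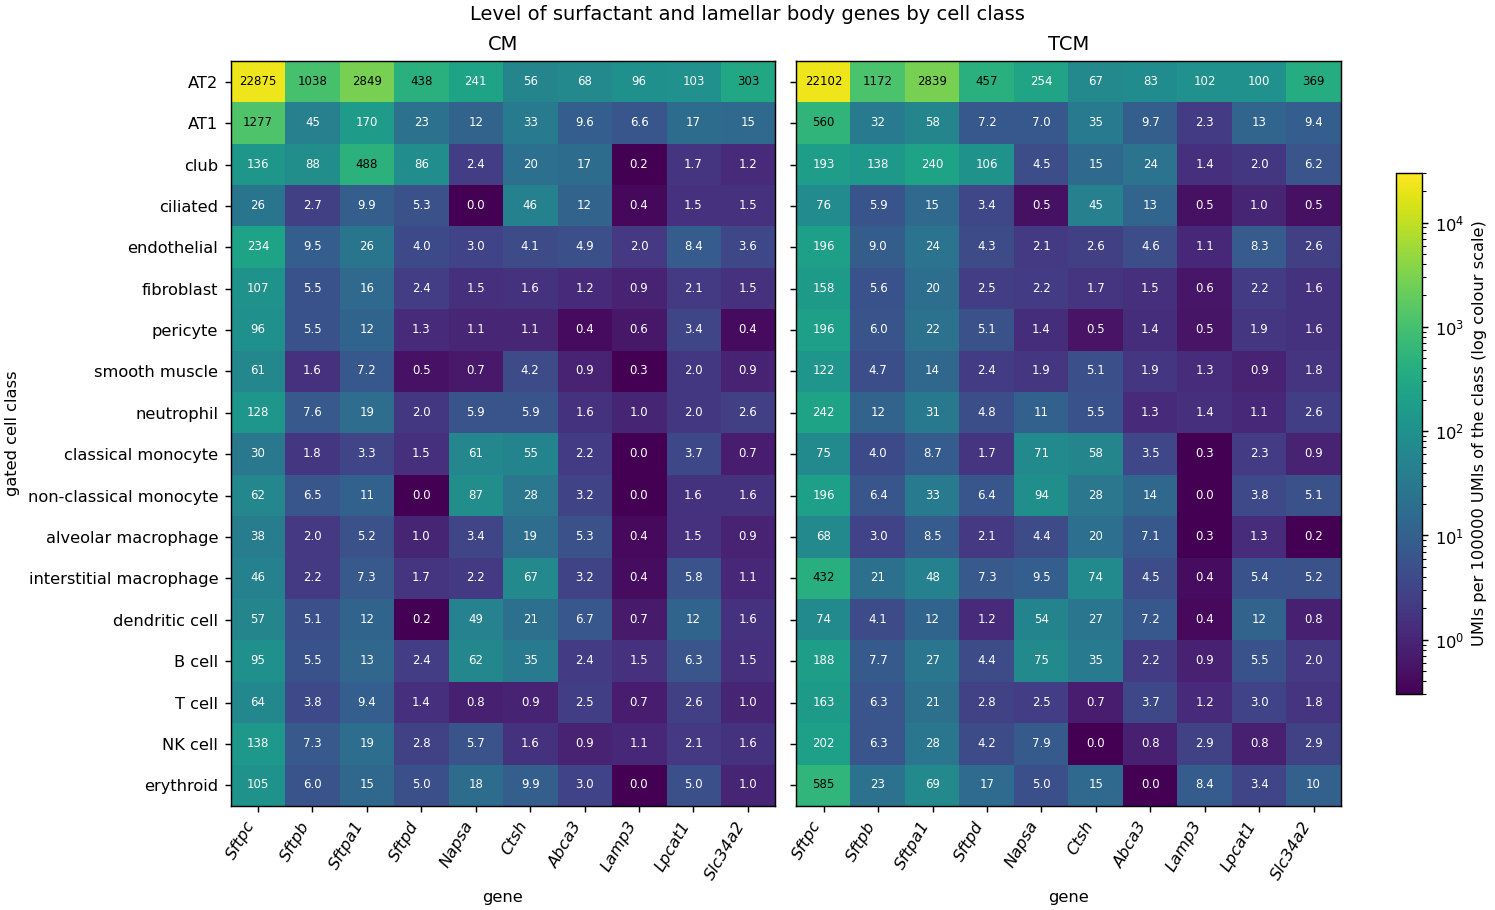
Level of each gene (columns) in each gated cell class with at least 20 cells in both libraries (rows), CM and TCM, in UMIs per 100000 on a log color scale. The AT2 row is highest for 9 genes, Napsa and Ctsh extend into myeloid and B cells, and Sftpa1, Sftpb, Sftpd and Abca3 into club cells.

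Surfactant RNA outside its source cells has to be read against free RNA, which enters every droplet. T-like cells, which have no known use for Sftpc, held 63.6 CP100k of it in CM and 163 in TCM, with upper interval limits of 67.4 and 170. For T, B and NK cells together, 1.97 Sftpc UMIs per cell were counted in CM and 3.95 in TCM, against 2.35 and 4.87 expected from the free RNA that secretoglobin and Bpifa1 UMIs in the same cells pointed to. In droplets of at most 50 UMIs there were 0.14 Sftpa1 UMIs per Sftpc UMI in CM and 0.12 in TCM, and T-like cells held the pair at 1.05 and 1.04 times that ratio. The same measure was 0.99 and 1.16 in B-like, 0.80 and 0.97 in endothelial-like and 1.05 and 1.02 in neutrophil-like cells. Thus in T-, B- and neutrophil-like cells the collectin stood near its free-RNA ratio to Sftpc, with values from 0.99 to 1.16. Endothelial-like cells lay below that ratio in CM, where they held 234.5 CP100k of Sftpc, more than T-like cells.

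Napsa and Ctsh did not follow Sftpc in this way. B-like cells held 61.7 CP100k of Napsa in CM (57.3 to 66.2) and 75.2 in TCM (68.9 to 82.0), 72.9 and 40.1 times the free-RNA ratio to Sftpc. Non-classical monocyte-like cells held 87.4 and 93.5, classical monocyte-like cells 60.8 and 71.1, and dendritic-like cells 49.1 and 53.7, while T-like cells held 0.84 and 2.45. Napsa encodes an aspartic protease. Ctsh, a lysosomal cysteine protease, was highest in interstitial macrophage-like cells, at 67.3 CP100k in CM (60.1 to 75.2) and 74.1 in TCM (66.5 to 82.4), above AT2-like cells at 55.6 and 66.7. The intervals of the pair of classes did not overlap in CM and overlapped in TCM. Classical monocyte-like cells had 54.6 and 57.6, ciliated-like cells 46.3 and 45.3, B-like cells 34.6 and 34.6, and AT1-like cells 33.1 and 34.7. AT2-like cells held only 16.4% of the Ctsh UMIs found in cells in CM and 25.1% in TCM.

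The lamellar body genes had lower levels outside AT2-like cells, but relative to those cells the step was not always large. Abca3 in club-like cells was 3.91 and 3.46 times below AT2-like cells, a smaller step than for Sftpa1, Sftpb or Sftpd. Lamp3 had no UMI in the 5 mature dendritic-like cells of CM and the 2 of TCM, too few cells to show a low level, with upper Poisson limits of 9.70 and 32.7 CP100k. Lpcat1 had 17.4 CP100k in AT1-like cells in CM and 13.1 in TCM, 12.2 and 11.7 in dendritic-like cells and 8.40 and 8.31 in endothelial-like cells, and in endothelial-like cells it was 6.40 and 8.93 times the free-RNA ratio to Sftpc. T-like cells, with 2.62 and 3.03 CP100k of Lpcat1, had a higher value of this measure than endothelial-like cells in CM and a lower one in TCM. Abca3 had 11.8 and 12.8 in ciliated-like cells, 109 and 49.8 times the free-RNA ratio. T-like cells, with 2.51 and 3.68 CP100k of Abca3, were also at 9.40 and 6.72 times that ratio. In AT2-like cells themselves Lamp3 stood at 0.49 times the free-RNA ratio in both libraries, so free RNA held more Lamp3 per Sftpc UMI than they did. For interstitial macrophage-like cells in TCM, 1 of 95 cells held 82.2% of the Sftpc UMIs, and their level was 432 CP100k with that cell and 80.1 without it.

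**Figure D3:**
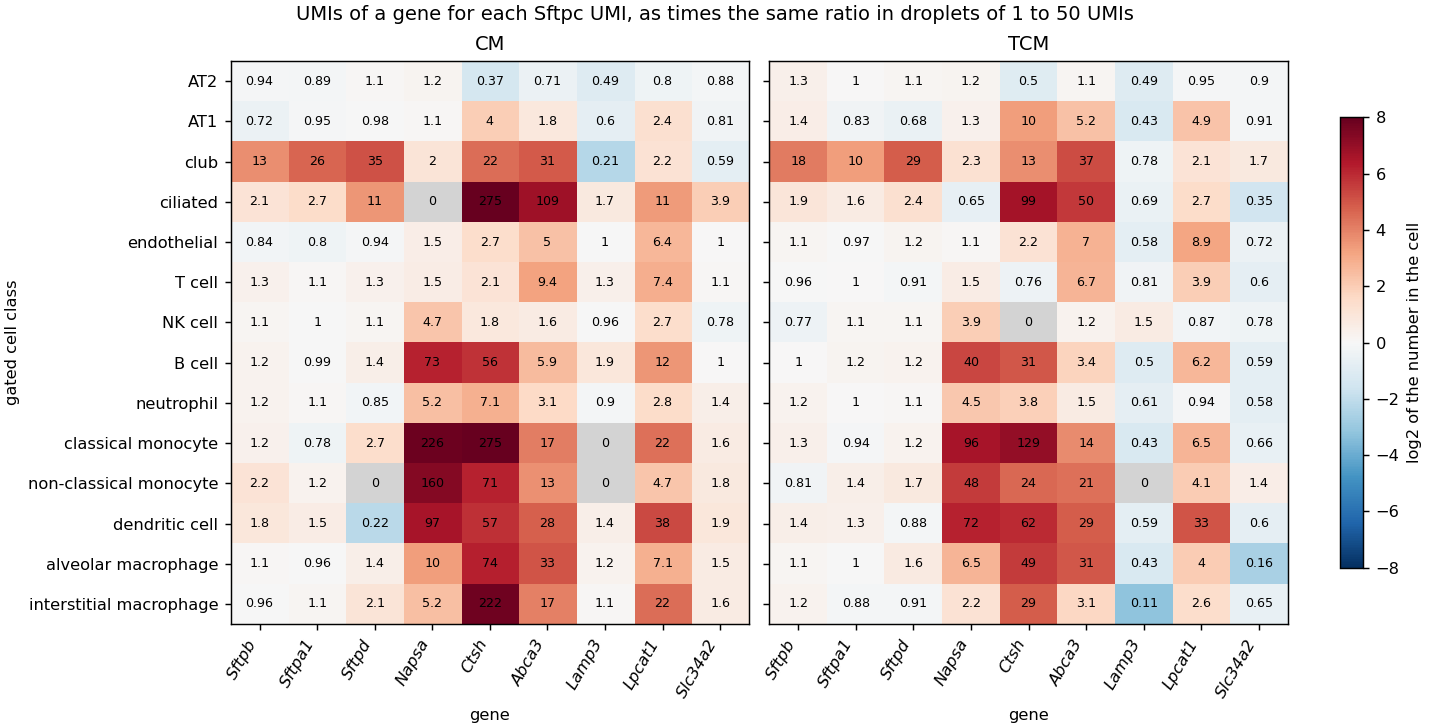
UMIs of each gene (columns) per Sftpc UMI in each class (rows), divided by the same ratio in droplets of at most 50 UMIs of the same library, CM and TCM. Numbers are these quotients, colors their log2, and grey cells hold no UMI of the gene. A value of 1 is the free-RNA ratio, at which Sftpa1 lies in T-like cells (1.05 and 1.04), while Napsa in B-like cells lies at 72.9 and 40.1.

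Club cells are secretory cells of the small airways. The club-like cells (49 in CM, 62 in TCM) held part of the set and not the rest. Sftpa1 was 25.7 times its free-RNA ratio to Sftpc in CM and 9.96 times in TCM, Sftpd 34.8 and 29.2 times, Sftpb 13.4 and 17.7 times, and Abca3, with 17.4 and 23.9 CP100k, 30.6 and 36.7 times. Lamp3 had 1 UMI in CM and 5 in TCM, Lpcat1 7 and 7, and Slc34a2 5 and 22. Few cells carried these levels. The 10 cells with the most held 97.9% of the Sftpa1 UMIs of the class in CM and 79.9% in TCM. TCM over CM, the log2 ratio was −1.02 for Sftpa1 (−1.14 to −0.91), 0.65 for Sftpb (0.45 to 0.85), 0.51 for Sftpc (0.35 to 0.67) and 0.30 for Sftpd (0.09 to 0.51). Of the 7 members with at least 20 UMIs in a library, 4 were at least 25% higher in TCM and 2 at least 25% higher in CM, beside 25.6% and 34.5% of 1990 genes. The value for Sftpa1 was 1.28 when the 10 cells with the most member UMIs were left out, and that for Sftpc was −1.43 with a stricter gate, so neither direction held over the choice of cells.

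AT1-like cells, the flat cells of gas exchange, held 1277 CP100k of Sftpc in CM (1258 to 1296; 340 cells) and 560 in TCM (547 to 573; 265 cells), which gave a log2 ratio of −1.19 (−1.23 to −1.15). The ratio was −1.55 for Sftpa1, −1.67 for Sftpd, −1.54 for Lamp3, −0.77 for Napsa, −0.72 for Slc34a2, −0.46 for Sftpb and −0.41 for Lpcat1. Abca3 stood at 0.03 and Ctsh at 0.07. In all, 8 of the 10 members were at least 25% higher in CM and 0 in TCM, beside 14.4% and 17.2% of 7661 genes.

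The 10 cells with the most held 58.3% of the class's Sftpc UMIs in CM and 72.8% in TCM. Without the 10 cells of each library with the most member UMIs, Sftpc was at −1.80, Slc34a2 at −2.04 and the median member at −1.33, all further below 0 than with them. When cells were clustered without the 10 genes, 220 AT1-like cells of CM and 211 of TCM fell in the cluster named for AT1 markers, and there Sftpc was 80.2 CP100k in CM (74.2 to 86.7) and 167 in TCM (158 to 176). The other 120 and 54 AT1-like cells lay in other clusters and held 2984 and 1292. For comparison, T-like cells held 63.6 and 163 CP100k of Sftpc, and the 8 members with enough UMIs there had a median ratio of 0.89. Over all cells of the AT1 cluster, the median member ratio was 0.98, against −0.74 for the gate and −0.34 for a stricter gate. Among the AT1-like cells within it, Ctsh stood at 35.8 and 40.7 CP100k, Lpcat1 at 15.8 and 12.7 and Abca3 at 7.82 and 8.28. All were above their T-like levels, of 0.89 and 0.74 for Ctsh, 2.62 and 3.03 for Lpcat1 and 2.51 and 3.68 for Abca3. The AT2 part of the cells outside the cluster was not tested.

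The median relation among the 10 genes within AT2-like cells was weak once depth was equal, though single pairs varied. Over all cells and without thinning, the 45 pairs had a median Spearman's rho of 0.72 in CM (252 cells) and 0.49 in TCM (297 cells), and all 45 were above 0. With every cell thinned to 1000 UMIs it was 0.12 in CM (211 cells) and 0.07 in TCM (289 cells), and pairs ran from −0.21 to 0.52 and from −0.32 to 0.43. At that depth Ctsh averaged only 0.51 and 0.69 UMIs a cell and Abca3 0.82 and 0.91. Counts this low can by themselves bring rho toward 0, and their part was not tested. With cells thinned to 3000 UMIs the median was 0.05 in CM (145 cells) and 0.07 in TCM (240 cells). These correlations are descriptions over cells of 1 library each, which share depth and a fixed total of UMIs, so a gene as abundant as Sftpc takes counts from the others.

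The pair with the highest value was Sftpc and Sftpa1, at 0.52 in CM and 0.43 in TCM. The collectins Sftpa1 and Sftpd had 0.38 and 0.26. Napsa with Sftpa1 had 0.42 in CM and 0.12 in TCM. The lowest was Sftpc with Lamp3, at −0.21 and −0.32. In cells deep enough to be thinned to 3000 UMIs (145 in CM, 240 in TCM) the same pair had −0.40 in both libraries, Abca3 with Slc34a2 had 0.53 and 0.35, and Lamp3 with Slc34a2 0.37 and 0.42. With Sftpc taken out of the total by which Lamp3 was divided, their value at 3000 UMIs was −0.28 in both libraries, and at 1000 UMIs it was −0.07 and −0.16. Abca3 with Lamp3 had 0.44 and 0.38. Thus Abca3, Lamp3 and Slc34a2 ranked together in the deeper cells, though at 1000 UMIs Abca3 with Lamp3 had 0.05 and 0.19. They did not stand apart from other members. With Abca3, Lamp3 and Slc34a2 in that order, Lpcat1 had 0.32, 0.41 and 0.46 in CM and 0.18, 0.21 and 0.18 in TCM. Sftpb had 0.31, 0.31 and 0.27 in CM and 0.22, 0.13 and 0.15 in TCM. In the deeper cells Sftpc was below 0 with Abca3 and Slc34a2 too, at −0.30 and −0.27 for Abca3 and −0.11 and −0.31 for Slc34a2. With Sftpc left out of the total, these were −0.17 and −0.13 for Abca3 and 0.02 and −0.19 for Slc34a2.

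**Figure D4:**
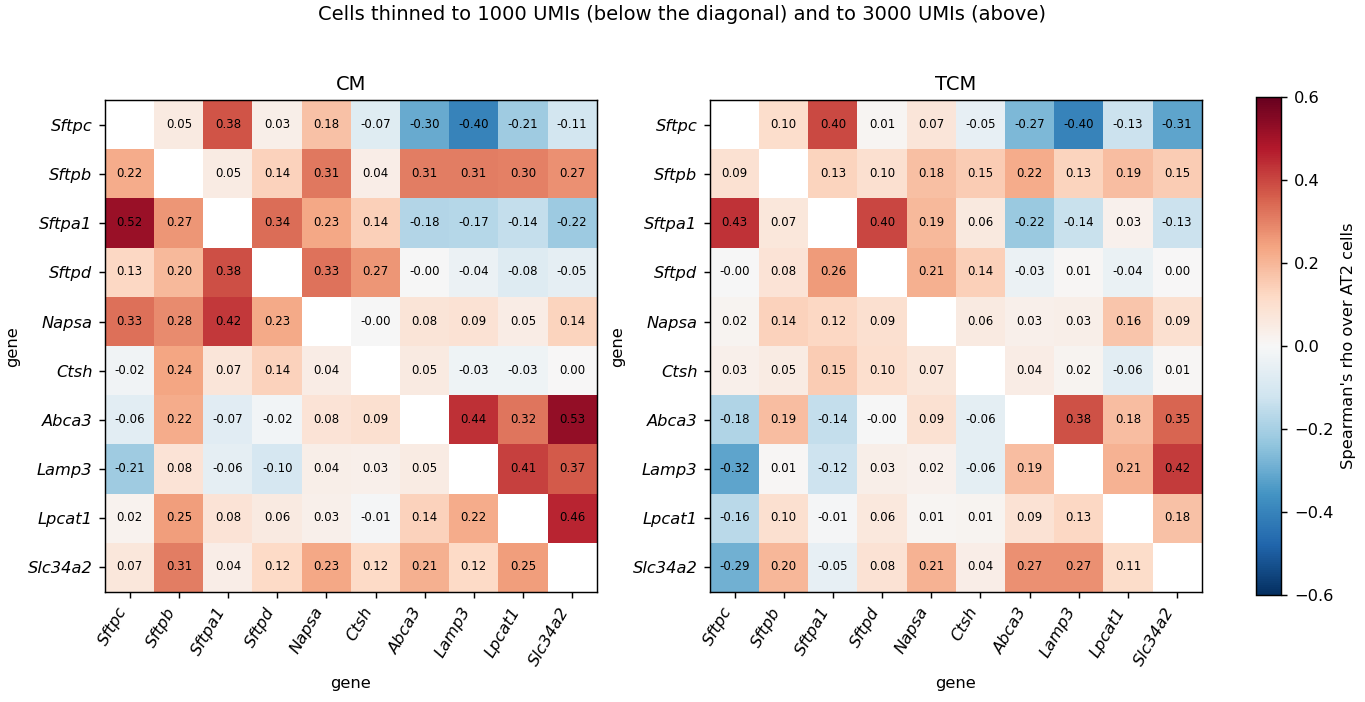
Spearman's rho between each pair of genes over AT2-like cells, CM (left) and TCM (right), with cells thinned to 1000 UMIs below the diagonal and to 3000 UMIs above it. Sftpc and Sftpa1 reach 0.52 and 0.43 at 1000 UMIs, and Sftpc and Lamp3 lie at −0.40 in both libraries at 3000.

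Other genes of the same machinery, were counted in AT2-like cells in 4 lists chosen for their roles. Of the genes with enough UMIs, 1 of 12 for processing and storage was at least 25% higher in TCM and 2 in CM, against the 26.4% and 12.5% of all genes, with a median log2 ratio of 0.10. The genes named, those with the largest ratios, were the sorting factor Vps33b at −0.84 (−1.48 to −0.22), the adaptor Ap3b1 at 0.44 (−0.11 to 1.02) and the small GTPase Rab38 at −0.39 (−1.33 to 0.56). For release and clearance it was 1 of 7 higher in TCM and 0 in CM, with a median of 0.14. The phospholipid flippase Atp8a1 had 32.8 CP100k in CM and 43.6 in TCM, a ratio of 0.41 (0.23 to 0.59), the calcium sensor Syt7 had 0.22 (−0.36 to 0.82), and the receptor Adgrf5, known for limiting surfactant pool size, had 0.16 (−0.04 to 0.36).

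For phospholipid supply 3 of 10 were at least 25% higher in TCM and 0 in CM, beside 26.4% and 12.5% of all genes tested, with a median of 0.22. These were the 3 largest, Cept1 at 0.75 (0.07 to 1.47) and Chpt1 at 0.35 (−0.16 to 0.86), both enzymes that add the choline head group, and Lpcat3, which remodels phosphatidylcholine, at 0.67 (0.08 to 1.29). Each rested on 95 UMIs or fewer in a library. Over this whole list 6 of the 10 ratios were above 0, with 5 intervals that lay above 0 and 1 that lay below it. Of the 8 transcription factors and their regulators, 0 were higher in TCM and 1 in CM, with a median of 0.10. Scap, the escort of the sterol regulators, had −0.32 (−1.03 to 0.38), Srebf1 0.28 (−0.11 to 0.68) and Foxa1 −0.21 (−0.77 to 0.36), and all of these intervals spanned 0.

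Over 15 classes and both libraries (30 points), the genes whose profile was most like the mean profile of the members were Tfcp2l1, Mal, Myh7, Lyz1 and Vsig2, each with a Pearson's r of 0.95. The members' own values against this mean, which includes them, ran from 0.54 for Ctsh and 0.69 for Napsa to 0.96 for Slc34a2. In AT2-like cells Lyz1, a secreted lysozyme, had 307 CP100k in CM and 240 in TCM, against 0.84 and 2.86 in T-like cells. Free RNA is part of every class profile, and so of each r.

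In droplets of at most 50 UMIs (224000 in CM with 696980 UMIs, and 250739 in TCM with 431071) the 10 genes together stood at 2317 CP100k in CM (2281 to 2353) and 2298 in TCM (2253 to 2344), which gave a log2 ratio of −0.01 (−0.05 to 0.02). These droplets held 2.36% of all UMIs of the 10 genes in CM and 1.03% in TCM, beside 2.18% and 1.18% of the UMIs of all genes. Sftpc stood at 1846 and 1860, Sftpa1 at 258 and 232 with a ratio of −0.15 (−0.26 to −0.04), and Sftpb at 89.1 and 74.9 with a ratio of −0.25 (−0.45 to −0.05). The other 7 had intervals that spanned 0, at levels from 6.26 CP100k for Abca3 to 34.8 for Sftpd, both in TCM. No member was 25% higher in either library, beside 22.6% of 5100 genes higher in TCM and 22.5% higher in CM.

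This equality depended on droplet size. In droplets of 1 to 20 UMIs Sftpc stood at 1302 CP100k in CM and 1794 in TCM, and in those of 21 to 50 UMIs at 2385 and 2764. It was higher in TCM in each range, but droplets of 21 to 50 UMIs numbered 8245 in CM and only 814 in TCM. In droplets of 51 to 200 UMIs, which held 11.53% of all UMIs in CM and 19.3% in TCM, it stood at 2084 and 3045, a ratio of 0.55 (0.54 to 0.56). In those over 200 and under 500 UMIs it stood at 940 and 2102, a ratio of 1.16 (1.13 to 1.19). At 51 to 200 UMIs Lamp3, Lpcat1 and Slc34a2 had ratios of −0.00 (−0.15 to 0.14), 0.00 (−0.18 to 0.19) and −0.00 (−0.11 to 0.10). These did not hold at other sizes. Slc34a2 was at 1.02 (0.58 to 1.48) at 1 to 20 UMIs and −0.67 (−2.02 to 0.41) at 21 to 50. Over 200 and under 500 UMIs it was at 1.12 (0.84 to 1.39), Lamp3 at 0.47 (0.13 to 0.82) and Lpcat1 at 0.11 (−0.28 to 0.52).

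**Figure D5:**
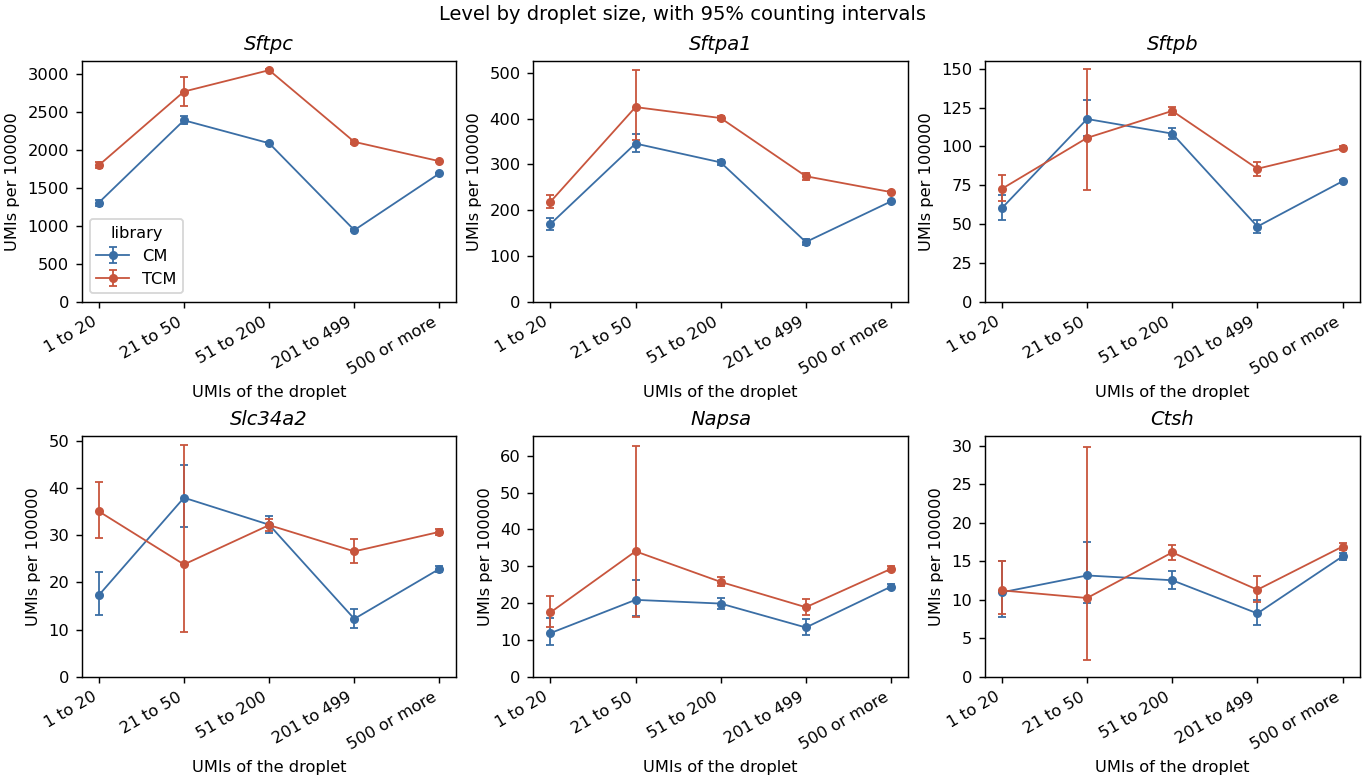
Level in UMIs per 100000 of 6 of the genes by size of the droplet in UMIs, CM and TCM, with 95% counting intervals. Sftpc is higher in TCM in each range below 500 UMIs, from 1302 and 1794 at 1 to 20 UMIs to 940 and 2102 at over 200 and under 500 UMIs.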

How the data were processed

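Lungs were dissociated and libraries made by the authors with the 10x Genomics 5′ V1.1 kit. The deposited files hold raw UMI counts per gene and barcode, made by the authors with Cell Ranger 4 on mm10 (GRCm38.p6), with no filter on barcodes. Seurat is named in the submitters' processing notes but made no file used here. The tables hold 1 added feature for a surface tag, which was not used.

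Everything else was computed from these counts (Python 3.11.15, scanpy 1.11.5, scipy 1.17.1). The 10 genes and all lists were chosen with earlier results of these data known. For the gate, 20% of each cell's UMIs times the free-RNA share of a marker were subtracted, the markers of a class were put on a log scale per 10000 UMIs and divided by their 90th percentile, and their mean was the score. A class needed a score of 0.2, 1.5 times the next class, and 3 markers. The stricter gate needed 2 times and 4 markers. These limits were set with levels of the 10 genes in view. Clusters (1000 variable genes without the members, 50 components, 15 neighbours, Leiden resolution 1) took a class name only where 50% of their cells were gated to it, a condition added after 2 further clusters led by AT2 markers were seen. The secretoglobin and Bpifa1 list used to estimate free RNA was also chosen after the data were seen.

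Doublets were not removed, because the caller (Scrublet) marked 0% of cells in either library. Ratios carry conditional binomial 95% intervals and levels exact Poisson ones. These cover counting error only. A count of 0 was set to 3 for a bound, and a ratio needed more than 3 UMIs in a library. A gene entered the background with 20 UMIs in a library and was called when 25% higher in a library. The genes named were the members, up to 3 a list with the largest absolute ratio among those counted, and the 5 non-member, non-marker genes with the highest correlation with the mean member profile. The study's own AT2 annotation was not used here. Alternatives changed the cell filters, the gate, the clusters, the scaling, thinning, the droplet sizes and the handling of doublets and shared barcodes.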

Additional observations from a re-analysis of the deposited data

Results flagged for a closer look

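Some members had opposite directions in different cell classes, each from 1 library a group, and the difference between classes was not tested. In AT1-like cells Sftpb had a log2 ratio of TCM over CM of −0.46, Sftpd −1.67, Napsa −0.77 and Slc34a2 −0.72, whereas in AT2-like cells each was above 0. In the AT1 cluster these 4 were at 1.0995, 0.99, 0.30 and 1.51, while in T-like cells the 8 members with enough UMIs had a median ratio of 0.89. In club-like cells Sftpc had 0.51, against −0.05 in AT2-like cells, and −1.43 with the stricter gate.

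Droplets of over 200 and under 500 UMIs, too small to count as cells, held more of the 10 genes in TCM, with 1192 CP100k in CM and 2586 in TCM and a log2 ratio of 1.12. Mixed cells, which belong to no gated class, held 27.2% of the Sftpc UMIs in cells in CM and 14.95% in TCM. Of the mixed cells, 178 in CM had AT2 as 1 of the 2 leading classes, with a median of 2026 UMIs, and 74 in TCM, with a median of 7198. The cause of these differences was not tested.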

How the results depend on the processing

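No paired analysis was possible because each group is 1 library, and for the same reason no replicate could be left out. Of 150 alternative values of single members in AT2-like cells, 111 stayed within the counting interval, 35 moved and 4 changed the sign of a member whose reported interval excluded 0. Counted over every member, the sign changed in 14 of the 150. Lamp3, reported above 0, was below 0 in 3 settings, at −0.12 when each cell weighed the same, −0.20 when thinned and −0.03 when scaled by the AT2 markers. Abca3, Ctsh, Sftpb and Slc34a2 were above 0 in 16 of 16 settings, the reported one included. Leaving out barcodes kept in both libraries left all 10 members within their intervals, with a median of 0.08. The median AT2 ratio was 0.15 when each cell weighed the same and −0.033 when scaled by the AT2 markers. Sftpc was 0.035 when each cell weighed the same and 0.0096 when thinned to 1000 UMIs, and scaled by AT2 markers Sftpd was −0.055 and Napsa −0.037.

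The AT1 median was −1.33 without the 10 cells with the most member UMIs, −0.34 with the stricter gate, where Sftpb was 0.11, and 0.98 with clusters, where Sftpa1 was 0.97, Sftpb 1.0995, Sftpc 1.01, Sftpd 0.99, Lamp3 0.99, Napsa 0.30 and Slc34a2 1.51. Club Sftpa1 was 1.28 without 10 cells and club Sftpc −1.43 with the stricter gate. The AT2 share of CM was 2.59% with the stricter gate, 3.998% at 2000 UMIs or more and 5.38% with mixed cells counted. That of TCM was 3.18% at 5% mitochondrial UMIs or less, 6.29% at 2000 UMIs or more and 4.81% with mixed cells counted, which turns the order of the libraries. The free-RNA sum was 0.45 at 20 UMIs or fewer (Sftpa1 0.36, Sftpb 0.27) and 0.50 at 51 to 200 UMIs (Sftpa1 0.40, Sftpb 0.18). Without thinning the median correlation was 0.72 in CM and 0.49 in TCM. The alternatives for AT1-like and club-like cells, the counting of mixed cells and the leaving out of shared barcodes were chosen after seeing the data, as were 3 further settings of the gate. The cause of each change was not tested.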
